A study of Arabidopsis thaliana with 9 samples.

Results

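Iron acquisition genes of the Arabidopsis root were followed through nuclei, whole cells, bulk RNA and open chromatin. The set held 10 genes chosen by gene identifier: IRT1, IRT2, FRO2, FRO3, FIT, PDR9, S8H, F6'H1, PYE and BTS. All 10 had a row in the bulk table of 33550 genes, and 9 had a row in each cluster table of 23241 genes. S8H (AT3G12900) had no row in the cluster tables and was listed at 0 in both bulk libraries. Of the 20803 accessible regions, 16 overlapped the 10 genes.

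Iron in soil is mostly ferric and poorly soluble. Arabidopsis roots acidify the soil with proton pumps, reduce ferric iron at the epidermal surface with the reductase FRO2 and take up ferrous iron through the transporter IRT1. The transcription factor FIT, which pairs with a small family of related bHLH factors, activates both genes when iron is short. Roots also secrete coumarins, phenolic compounds that mobilise iron: F6'H1 forms the precursor of scopoletin, S8H converts scopoletin to fraxetin, and the ABC transporter PDR9 (also called ABCG37) exports coumarins. In the vasculature the bHLH factor PYE and the ubiquitin ligase BTS adjust the response to iron status.

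The plants were Col-0, an unmutated laboratory strain, and no label names an iron treatment. Roots of 7-day-old seedlings grown upright on MS plates in a light-dark cycle gave 5 single-nucleus RNA and 2 single-nucleus ATAC libraries, from nuclei sorted after the roots were chopped. Root tips of 6-day-old plants, grown in constant light, gave 1 intact bulk RNA library, titled whole root, and 1 bulk library from protoplasts, which are cells freed of their walls. For nuclei the 5 RNA libraries were pooled into 21 numbered clusters, with a single value for each gene in a cluster. A whole-cell table held 20 of these clusters, without cluster 14, and the labels name neither its plants nor its preparation. No value has a replicate, so no p-value is given and every difference describes these libraries and tables.

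Cluster values are per 10000 of the total signal of a cluster. A cluster was named from at least 3 cell type markers at 0.5 or more that were highest in it. By this rule clusters 1 and 2 were root hair-like, 18 was pericycle-like, 21 xylem-like, and 17 and 19 were phloem-like. Of the endodermis, 14 was suberized endodermis-like and 16 Casparian strip endodermis-like. Clusters 9 and 10 carried DNA replication and mitosis genes. The others are given by number. In cluster 6 the non-hair regulator GL2 and XTH17 were highest. In cluster 7 the root cap genes SMB and BRN1 and the non-hair marker WER were highest. ABCB4, listed here with the non-hair markers, was highest in cluster 4. That cluster ranked 6 of 21 on the non-hair markers and 4 of 21 on the root hair markers. The cortex gene AT1G62510 was highest in cluster 12. The other cortex markers were under 0.5: AT1G09750 was highest in cluster 12, CO2 in cluster 9 and C/VIF2 in cluster 6. Cluster 5 ranked 8 of 21 on the non-hair markers and 19 of 21 on the root hair markers. Of the cluster numbers, 18 of the 20 shared by both RNA tables matched best to the same number in whole cells, the exceptions being 4 and 7. Nucleus cluster 4 matched whole-cell cluster 5 better (correlation 0.59) than whole-cell cluster 4 (0.40). Whether the clusters numbered 4 hold the same cells was not tested. Of the 21 ATAC clusters 20 matched best to nuclei of the same number, the exception being 1.

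The uptake genes split between clusters. IRT1 (AT4G19690), the main ferrous iron transporter, was at 2.88 per 10000 in cluster 5, 0.552 in cluster 4 and 0.526 in cluster 1. Its median over the 21 clusters was 0.215 and its lowest value 0.0617, in cluster 14. Cluster 5 stood 5.21-fold above the next and held 38.1% of the IRT1 signal summed over clusters. IRT2 (AT4G19680), the neighbouring gene for a related transporter that resides in vesicles, was instead at 15.2 in cluster 1 and 7.13 in cluster 2, both root hair-like. It was at 1.72 in cluster 4, 0.600 in cluster 3 and 0.223 in cluster 5, with a median of 0.266 and a low of 0.0928 in cluster 13. Clusters 1 and 2 together held 77.9% of the summed IRT2 signal. The neighbouring genes therefore had their highest values in different clusters, and in cluster 5, where IRT1 led, IRT2 was below its own median. The proteins are similar and the counting is not described, so some reads could have been assigned to either gene.

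FRO2 (AT1G01580), the root surface reductase, was scarce in nuclei. It was at 0.278 in cluster 5, 0.142 in cluster 7 and 0.105 in cluster 16, with a median of 0.00945 and 7 clusters listed at 0, among them both root hair-like ones. No cluster reached 0.5, which was the floor for calling a gene detected. FIT (AT2G28160), the activator of both uptake genes, was at 0.529 in cluster 5, 0.488 in cluster 6 and 0.266 in cluster 2, and its median was 0.0773. It was listed at 0 in clusters 14, 19 and 20. FIT thus had its highest value in the same cluster as IRT1 and FRO2, but cluster 5 was only 1.1-fold above cluster 6.

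The coumarin genes followed another order. F6'H1 (AT3G13610), the feruloyl-CoA hydroxylase, was at 1.53 in cluster 12, 1.27 in cluster 11 and 0.624 in cluster 5. Its median was 0.124, and it was listed at 0 in cluster 20. The annotated span of F6'H1 overlaps that of PUT4, so reads at the shared end are uncertain. PDR9 (AT3G53480), the exporter, was spread over more clusters: it was at 3.94 in cluster 4, 3.55 in cluster 6, 3.46 in cluster 5, 2.99 in cluster 2, 2.70 in cluster 1, 2.30 in cluster 3 and 2.25 in cluster 7. Cluster 11 followed at 1.69 and cluster 9 at 1.0, and the lowest value was 0.138 in the Casparian strip endodermis-like cluster 16. The 7 clusters with the highest PDR9 were thus the clusters numbered 1 to 7. In clusters 11 and 12, where the hydroxylase was highest, PDR9 was at 1.69 and 0.660.

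Of the genes tied to iron sensing, FRO3 had a marked order over clusters, while PYE and BTS varied less. FRO3 (AT1G23020), a reductase of the mitochondrial membrane, was at 5.40 in cluster 2, 3.4 in cluster 13, 3.11 in cluster 6, 2.56 in cluster 4 and 2.52 in cluster 5. Its median was 0.661 and its lowest value 0.178, in the mitosis cluster 10. Its annotated span overlaps that of LPR1, so its value is uncertain in the same way. PYE (AT3G47640) stayed under 0.5 in every cluster: it was highest at 0.454 in the pericycle-like cluster 18, followed by 0.363 in cluster 8 and 0.352 in cluster 7, with a median of 0.214 and a low of 0.0170 in cluster 1. BTS (AT3G18290), the ligase that marks bHLH factors for breakdown, was at 1.0 in cluster 6, 0.870 in cluster 2 and 0.728 in cluster 18, with a median of 0.479 and a low of 0.202 in cluster 19. Its highest value was 2.1-fold its median over the other clusters, against 13.9-fold for IRT1 and 58.5-fold for IRT2.

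**Figure D1:**
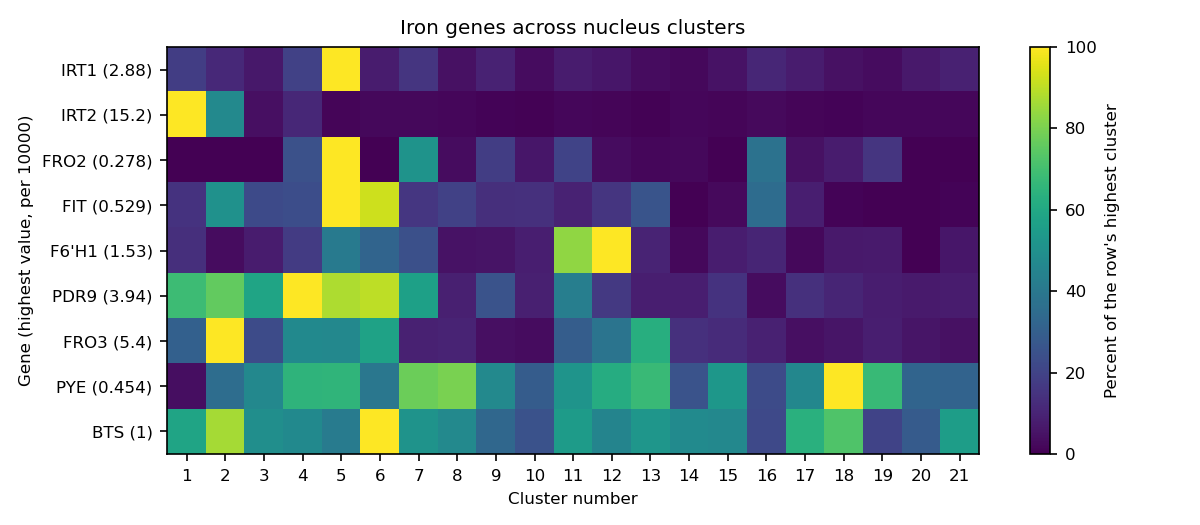
Values of 9 iron genes in 21 nucleus clusters. Each row is a gene, with its highest value per 10000 in brackets, each column a cluster, and colour is the percent of the row's highest cluster. IRT1, FRO2 and FIT are brightest in cluster 5, IRT2 in clusters 1 and 2 and F6'H1 in clusters 12 and 11, while PYE and BTS are coloured across most clusters.

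Of the 9 genes in the table, 7 reached 0.5 in a nucleus cluster. IRT1 and IRT2, 2 of these 7, were at least 2-fold above the next cluster, beside 21.5% of all 13016 genes that reached 0.5. Cluster 5 was the highest for 2 of the 7, IRT1 and FIT, and was so for 2.66% of all such genes. FIT reached 0.5 in cluster 5 alone, so it was among the 7 only through the cluster it is counted for. Neighbouring clusters in the order of a gene, such as clusters 5 and 6 for FIT or 12 and 11 for F6'H1, have no spread from which to judge their difference.

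Likeness between genes was described by Pearson correlation of log2(value + 0.1) over the 21 nucleus clusters, which share their libraries. Among the iron genes IRT1 was most like FRO2 (0.73), PDR9 (0.62) and FIT (0.59), and less like its neighbour IRT2 (0.33). By Spearman correlation this order changed: IRT1 was at 0.58 with PDR9, 0.50 with IRT2, 0.47 with FIT and 0.26 with FRO2. FRO2 was under 0.5 in every cluster. FIT was most like FRO3 (0.66). IRT2 and PYE, the latter under 0.5 in every cluster, were at -0.53, and at -0.34 by Spearman correlation. Over all detected genes, IRT1 was most like AT1G02360 (0.81), AT4G17680 (0.81), YLS9 (0.80) and AT5G64120 (0.78), each highest in cluster 5. FIT was most like AT2G39410 (0.86), AT4G13130 (0.80), GulLO5 (0.78) and AT5G22355 (0.78), each highest in cluster 6.

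IRT2 was most like AT2G39518, AT4G18940, AT1G05990 and AT1G18940, all at 0.96 and all highest in cluster 1. F6'H1 was most like AT4G00700 (0.95), CYP71A16 (0.89), AT3G24420 (0.89) and the nitrilase gene NIT1 (0.88). PDR9 was most like AT2G04100 (0.92), AT2G40230 (0.91), RLP9 (0.91) and AT5G26260 (0.91). FRO3 was most like AT2G20670 (0.86), APRL6 (0.86), AT3G44400 (0.85) and the annexin gene ANNAT4 (0.85), and BTS most like GGH2 (0.76), OPR2 (0.75), FLA15 (0.74) and AT4G38900 (0.71). The names depended on the measure of likeness: by Spearman correlation 5 of the 28 pairs were again among the first 4, and 8 were without the log.

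In whole cells IRT1 was almost missing. Its highest value was 0.0698 per 10000, in cluster 1, 13 of 20 clusters were listed at 0, and cluster 5, its highest in nuclei, was among them. IRT2 was again highest in the root hair-like clusters, with 2.49 in cluster 1 and 0.972 in cluster 2, against 15.2 and 7.13 in nuclei. FRO2 was at 0.140 in cluster 4, 0.107 in cluster 7 and 0.0170 in cluster 5, and was listed at 0 in 9 clusters. FRO3 was at most 0.307, in cluster 1, and at 0.226 in cluster 2, where nuclei had 5.40. The nucleus values of FRO3 lay above the whole-cell values in all shared clusters.

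FIT and PYE had means over the 21 nucleus clusters of 0.117 and 0.227. Their values were similar or higher in whole cells, with means over 20 clusters of 0.192 and 0.248. FIT was at 0.736 in cluster 6, 0.50 in cluster 7 and 0.490 in cluster 3, while cluster 5 had 0.172. PYE was at 0.609 in cluster 10, 0.592 in cluster 7 and 0.473 in cluster 4. PDR9 was at 2.42 in cluster 6, 2.39 in cluster 4, 2.30 in cluster 7, 2.06 in cluster 10 and 2.04 in cluster 5. Cluster 10 had 0.350 of PDR9 and 0.133 of PYE in nuclei. In whole cells this cluster was also the highest for all 4 root cap markers (SMB at 1.23) and for the non-hair regulator WER (5.32), which in nuclei were highest in cluster 7, so the 2 clusters numbered 10 differed in these markers as well. The part of such cells in the PDR9 and PYE values was not tested. F6'H1 was at 1.12 in cluster 11 and 0.316 in cluster 12, so its highest cluster was 11 in cells and 12 in nuclei. BTS was at 0.771 in cluster 5 and 0.461 in cluster 2.

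Averages were taken with equal weight over the 20 whole-cell and the 21 nucleus clusters. IRT2 was at 0.223 in whole cells and 1.36 in nuclei, 4.53-fold lower after 0.1 was added to each. FRO3 was at 0.0894 and 1.35, 7.67-fold lower. On the log2 scale these differences were -2.18 and -2.94, and -2.23 and -2.97 without nucleus cluster 14. IRT2 and FRO3 passed the floor of 0.5 through nuclei alone. PDR9 was at 0.951 and 1.36, and BTS at 0.300 and 0.502, both differing by less than 2-fold. IRT1, at 0.00611 and 0.360, stayed under the floor of 0.5 in both means, as did FRO2, FIT, F6'H1 and PYE. So 2 of the 4 iron genes past the floor were lower in whole cells, beside 43.6% of 6546 genes, and 0 were higher, beside 20.2%. The median gene was 0.67 lower on the log2 scale. Relative to that median, 2114 genes in place of 1321 were higher and 1934 in place of 2852 were lower, while IRT2 and FRO3 were still lower by 1.51 and 2.27 on the log2 scale. With medians over clusters in place of means IRT2 no longer passed the floor.

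IRT1 and FRO3, 2 of the 7 iron genes that reached 0.5 in a nucleus cluster, did so in no whole-cell cluster, beside 50.7% of such genes. In whole cells 2 of 6 detected iron genes, IRT2 and F6'H1, stood 2-fold above the next cluster, beside 14.9%. Of the 5 iron genes detected in both tables, 1, IRT2, had the same highest cluster, beside 36.6% of 6416 such genes. The order of the 20 shared clusters was most alike for FRO3 (Spearman correlation 0.83), PDR9 (0.72), FIT (0.63) and F6'H1 (0.62). It was least alike for IRT2 (0.24), PYE (0.26), BTS (0.30) and IRT1 (0.38). The median was 0.54 over the 9 genes and 0.58 over genes detected in both. IRT2 had the same first 2 clusters in both tables and a different order among the rest.

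**Figure D2:**
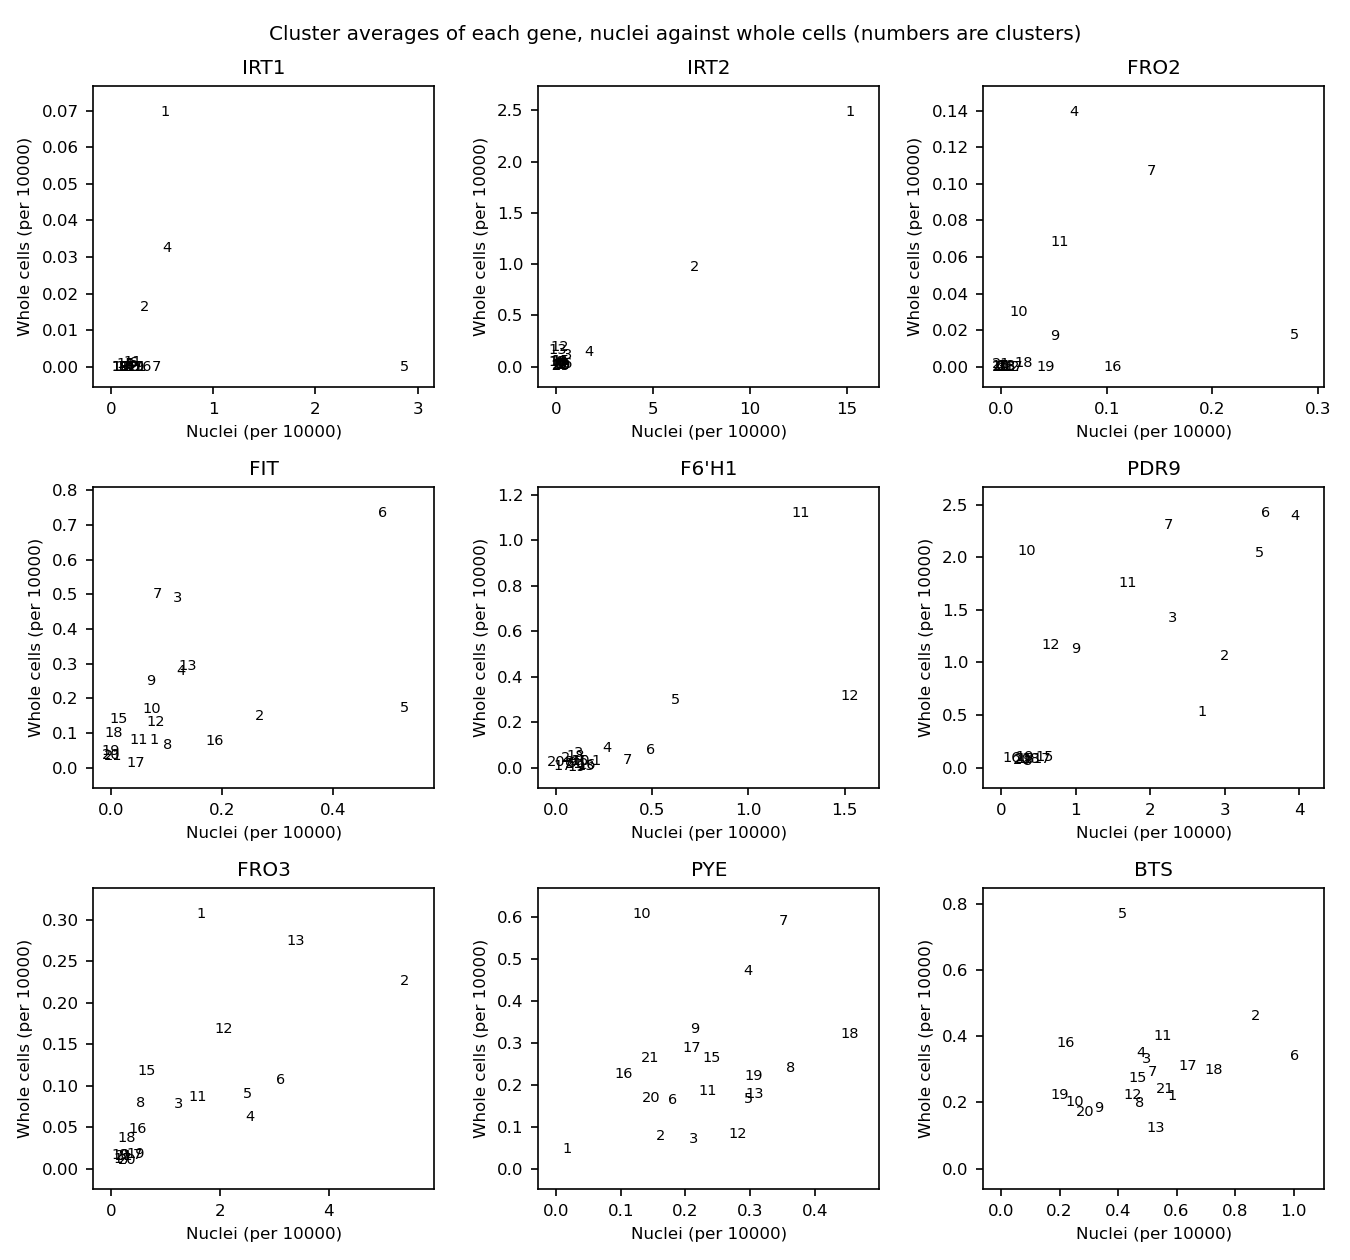
Cluster averages of 9 iron genes, with nuclei on the horizontal and whole cells on the vertical axis, both per 10000, and each number marking 1 of the 20 shared clusters. Axes differ between panels. IRT1 in cluster 5 lies far right at 2.88 in nuclei and at 0 in whole cells, and IRT2 has clusters 1 and 2 apart from the rest in both tables.

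In bulk RNA, FPKM divides by transcript length, so genes can be compared with each other. In intact tips F6'H1 was the highest at 130 FPKM, followed by IRT2 at 97.7, PDR9 at 61.5, FRO3 at 36.2, FIT at 25.6, BTS at 18.9, IRT1 at 8.98, PYE at 7.69 and FRO2 at 1.64. In protoplasts PDR9 led at 265, followed by FIT at 60.0, IRT2 at 47.4, BTS at 42.4, FRO3 at 36.5, F6'H1 at 30.2, PYE at 13.6, FRO2 at 7.50 and IRT1 at 0.248. Thus F6'H1 and IRT1 moved down in the order and PDR9 and FIT moved up. With 1 library each, neighbours in these orders cannot be told apart from library spread.

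After 1 FPKM was added, PDR9 was 4.26-fold higher in protoplasts, FIT 2.29-fold and BTS 2.18-fold. FRO2 was 3.22-fold higher and passed the floor of 5 FPKM through the protoplast library alone. F6'H1 was 4.20-fold lower, IRT2 2.04-fold, and IRT1 8.00-fold, which passed the floor through the intact library alone. PYE was 1.68-fold higher and FRO3 1.01-fold. So 4 of the 9 genes past the floor were higher, beside 11.4% of 15110 genes, and 3 were lower, beside 30.3%. The median gene was 0.46 lower on the log2 scale. After centring on it, 2632 genes were higher and 2845 lower in place of 1718 and 4582, IRT2 was no longer 2-fold lower (-0.57 on the log2 scale) and PYE became 2-fold higher (1.21).

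The 2 coumarin genes with bulk values thus differed in opposite directions. FRO2 and IRT1 each passed the floor through 1 library, fell under a floor of 20 FPKM, and FRO2 was not 2-fold higher with 5 FPKM added (0.91 on the log2 scale). In bulk RNA, fewer cells of a type and less RNA per cell cannot be told apart. Cell type markers also differed between these libraries. All 6 suberized endodermis markers past the floor, of 8 listed, were 2-fold lower in protoplasts, their sum being 270.5 FPKM in the intact library against 16.5 after protoplasting, and 2 of the 8 were at 0 in protoplasts. All 3 pericycle markers past the floor, of 5, were lower (129.9 and 8.30). Of the root cap markers 2 of 3 past the floor, of 4 listed, were higher (28.8 and 106). Of the 12 root hair markers 1 was higher and 3 were lower (2953 and 1846), and of the 6 non-hair markers 1 was higher and 0 were lower (475 and 426). All 4 mitosis markers past the floor, of 6, were lower (56.9 and 12.6), as were 3 of the 4 DNA replication markers (187 and 58.4) and 3 of the 9 Casparian strip markers (2538 and 1352). The 3 cortex markers past the floor, of 4, differed by less than 2-fold (51.0 and 43.6), and of the phloem and xylem markers 1 each was higher and 1 lower. The suberized endodermis markers were the only list with a marker at 0. Their part in the results for the iron genes was not tested.

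**Figure D3:**
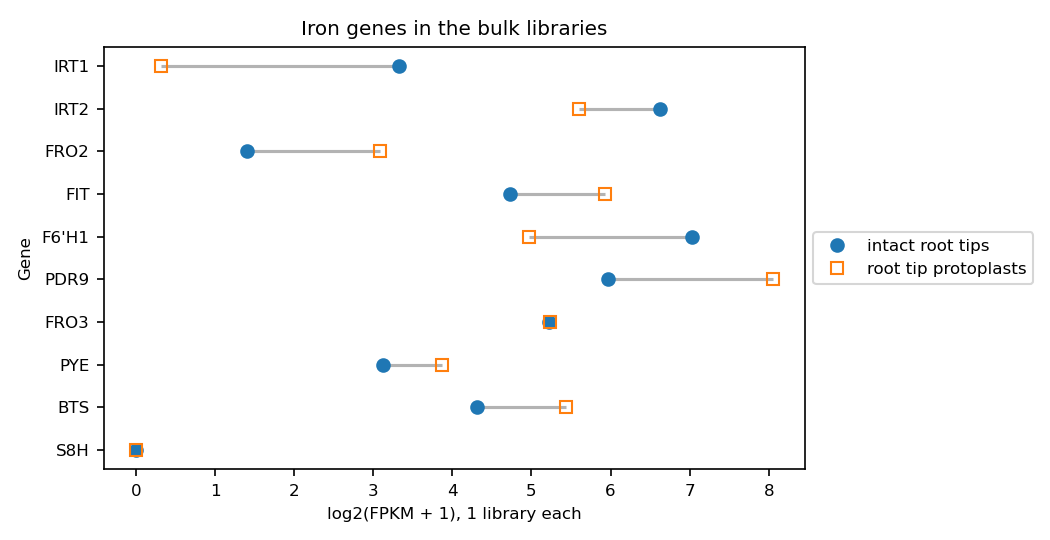
Bulk values of the 10 iron genes as log2(FPKM + 1), with 1 intact root tip library (filled circles) and 1 protoplast library (open squares). PDR9, FIT, BTS and FRO2 lie to the right in protoplasts, IRT1, F6'H1 and IRT2 to the left, and S8H is at 0 in both.

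Open chromatin was measured as fragment signal per region, with each cluster scaled to a total of 10000. The regions were long, with a median of 1715 bases over the whole table, and several covered neighbouring genes. The IRT1 region, chr4:10705602-10726617, overlapped 3 genes, as did the regions of IRT2 and FIT. It was at 0.891 in cluster 5, 0.671 in cluster 11 and 0.263 at its lowest, in cluster 19. The IRT2 region, chr4:10698427-10705064, was at 0.662 in cluster 5, 0.633 in cluster 1 and 0.311 at its lowest, in cluster 9. As deposited, without the scaling, cluster 1 was its highest at 0.830. IRT2 RNA was at 0.223 in cluster 5 and 15.2 in cluster 1. The FIT region, chr2:12000767-12007325, was at 1.03 in cluster 5, 0.643 in cluster 6 and 0.104 in cluster 3, with a median of 0.357. Clusters 5 and 6 were also those with the highest FIT RNA.

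PDR9 had 2 regions, which overlapped 3 and 2 genes, so their signal is not of PDR9 alone. The first, chr3:19821118-19825746, was at 1.11 in cluster 4, 1.08 in cluster 5 and 0.0723 in cluster 10, with a median of 0.276. The second, chr3:19827126-19832758, was at 0.969 in cluster 4 and 0.851 in cluster 1, with a median of 0.447. PDR9 RNA was also highest in cluster 4. The F6'H1 region, chr3:4446835-4453667, overlapped 3 genes. It was at 0.749 in cluster 11 and 0.717 in cluster 5, and cluster 11 was second for F6'H1 RNA. The FRO3 region, chr1:8140684-8159902, which overlapped 4 genes, was at 0.713 in cluster 13 and 0.635 in cluster 2, the 2 clusters with the most FRO3 RNA in the opposite order.

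FRO2 had 3 regions. The first, chr1:200579-209485, overlapped 4 genes and was at 0.720 in cluster 5 and 0.662 in cluster 4. The others, chr1:210290-211430 and chr1:212273-213081, overlapped FRO2 alone and were highest in cluster 7, at 1.27 and 1.76, against 0.933 in cluster 9 and 0.837 in cluster 5 next. The clusters numbered 7 were second for FRO2 RNA in nuclei and in whole cells, in both of which FRO2 stayed under 0.5. However, nucleus cluster 7 matched whole-cell cluster 9 better (correlation 0.64) than whole-cell cluster 7 (0.59). ATAC cluster 7 matched nucleus cluster 7 at 0.24, the lowest same-number value of the 21. Whether the clusters numbered 7 hold the same cells was not tested. S8H had no RNA value in any cluster, but its regions chr3:4102647-4104927 and chr3:4105869-4107502 were highest in cluster 7 (0.732) and cluster 5 (0.889). The PYE region, chr3:17565044-17569901, overlapped 3 genes and was highest in cluster 14 (0.708). The 3 BTS regions, chr3:6271237-6274505, chr3:6275609-6276186 and chr3:6277063-6281627, were highest in clusters 4, 1 and 1, at 0.753, 0.968 and 0.740.

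**Figure D4:**
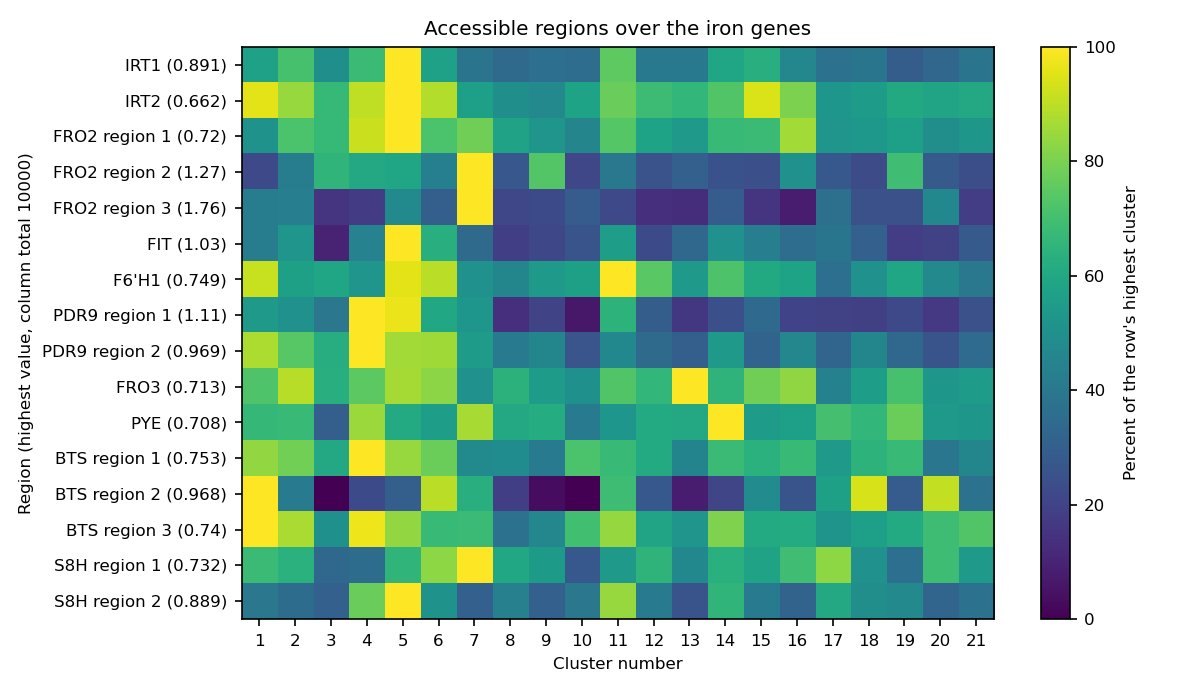
Signal of the 16 accessible regions over the iron genes in 21 ATAC clusters. Each row is a region, with its highest value in brackets on the scale where a cluster totals 10000, and colour is the percent of the row's highest cluster. On this scale cluster 5 is brightest for 5 regions, those of IRT1, IRT2 and FIT, FRO2 region 1 and S8H region 2.

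Cluster 5 was the highest for 5 of the 16 regions, beside 5.38% of all regions, and cluster 7 for 3, beside 4.23%. Cluster 4 was the highest for 3, beside 15.6%. As deposited, 4 regions had another highest cluster: IRT2, PDR9 region 2 and BTS region 1 moved to cluster 1, and PDR9 region 1 to cluster 5. Cluster 5 was then the highest for 5 regions, beside 2.97% of all regions, and cluster 4 for 0, beside 8.49%. The member regions were not more uneven than others: the highest value was 1.97-fold the median of the other clusters at the median of the 16, and 2.06-fold over all regions. The signal summed over the regions of a gene went with its nucleus RNA over the 21 clusters at a Spearman correlation of 0.83 for PDR9, 0.81 for FRO3, 0.59 for F6'H1, 0.51 for IRT2 and 0.49 for BTS. It was 0.39 for FRO2 and IRT1, 0.37 for FIT and 0.22 for PYE. All 9 values were above 0, as were 78.7% of the 12922 genes with a region that reached 0.5 in a nucleus cluster. FRO2 and PYE, among the 9, did not reach it. The median of 0.49 stood beside 0.30 over the 12922 genes. Accessibility and RNA were highest in the same cluster for 3 of 9 genes, IRT1, FIT and PDR9, beside 21.1% of those 12922 genes.

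A further 66 genes of iron regulation, coumarin and phenylpropanoid synthesis, iron movement and storage, and the FRO and ZIP families set the members in their pathway. Of these 61 had a row in the cluster tables and 43 reached 0.5 in a nucleus cluster. At least 2-fold above the next cluster were 14 of the 43, beside the 21.5% of all detected genes. Cluster 5 was the highest for 2 of the 43, beside 2.66% of detected genes. The Casparian strip endodermis-like cluster 16 was the highest for 10, beside 5.89%. Most of these 10 came from the coumarin and phenylpropanoid list: COSY, PAL2, 4CL1, 4CL2, HCT, C3H and CCOAOMT1. The phloem-like cluster 19 was the highest for 8, beside 6.79%, and cluster 1 for 5, beside 4.66%.

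Among the regulators, the bHLH factors that pair with FIT did not share 1 highest cluster, but cluster 5 was among the first 3 for each. The similar neighbours bHLH38 (AT3G56970) and bHLH39 (AT3G56980), whose reads could be shared, were highest in cluster 15, at 0.893 and 1.97. The next value was 0.639 in cluster 5 for bHLH38 and 1.68 in cluster 11 for bHLH39. Cluster 15 ranked 2 of 21 on the suberized endodermis and pericycle markers and 3 of 21 on the Casparian strip markers. As a mean percent of each marker's highest cluster, it was at 30.6, 20.6 and 10.7 on these lists. The first-ranked clusters 14, 18 and 16 were at 92.4, 87.4 and 100. bHLH100 (AT2G41240) was at 0.765 in cluster 5 and 0.556 in cluster 11. bHLH101 (AT5G04150), under 0.5 in every cluster, was at 0.372 in cluster 15, 0.267 in cluster 11 and 0.230 in cluster 5. Neighbouring clusters in these orders have no spread from which to judge their difference. BTSL1 (AT1G74770), a ligase related to BTS, was at 2.51 in cluster 15 and 1.90 in cluster 5, and BTSL2 (AT1G18910) at 0.784 in cluster 16.

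The small peptide genes IMA1 (AT1G47400) and IMA2 (AT1G47395), neighbours that promote iron uptake, were highest in the phloem-like cluster 19. They were at 1.28 against 0.0316 in the next cluster and at 2.74 against 0.0948. ILR3, bHLH104, bHLH115 and URI, which act upstream of these genes, were broader, at 0.5 or more in 21, 19, 20 and 13 clusters. bHLH34, of the same group, was at 1.2 in cluster 19 and 0.530 in cluster 17. MYB72, a regulator of coumarin release, had no row in the cluster tables.

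Of the genes for iron movement and storage that reached 0.5, 6 of 12 stood 2-fold above the next cluster, beside the 21.5% of all detected genes. FRD3 (AT3G08040), the citrate exporter that loads xylem with iron, was at 5.38 in the pericycle-like cluster 18 against 0.874 in the next cluster. VTL5 (AT3G25190), of the vacuolar iron transporter-like family, was at 1.14 there against 0.147. The phloem-like cluster 19 held the highest values of the transporter genes OPT3 (2.24 against 0.799), FPN1 (1.18 against 0.423) and ZIP1 (1.72 against 0.513). NAS1 (AT5G04950), which makes the metal chelator nicotianamine, was at 2.89 in cluster 11 against 0.775 in cluster 5. The ferritin gene FER1 (AT5G01600), for iron storage, was at 8.31 in cluster 13 against 2.94.

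The enzymes feeding F6'H1 were highest elsewhere than F6'H1 itself. PAL2 was at 16.2 in cluster 16 against 8.03 in the next cluster, 4CL1 at 15.4 against 6.89 and HCT at 9.27 against 4.20. These enzymes also serve lignin. CCOAOMT1, which makes feruloyl-CoA, the substrate of F6'H1, was at 36.2 in cluster 16 and 33.5 in cluster 20, and COSY, which closes the coumarin ring, at 2.99 in cluster 16. In cluster 12, where F6'H1 was highest, 4CL1 ranked 2 of 21 at 6.89 and CCOAOMT1 3 at 19.8. COSY ranked 4 there at 1.42, PAL2 6 at 2.77 and HCT 7 at 2.11.

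In the root hair-like cluster 1 the proton pump gene AHA2 was at 20.6 (19.6 in cluster 11), ZIP3 at 4.65 (2.16 in cluster 2) and ZIP2 at 4.20 (3.73 in cluster 11). The similar neighbours FRO4 and FRO5 were at 3.49 and 1.48 there and at 2.94 and 1.11 in cluster 2. They thus had the same first 2 clusters as IRT2, and FRO2 was at 0 in both.

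**Figure D5:**
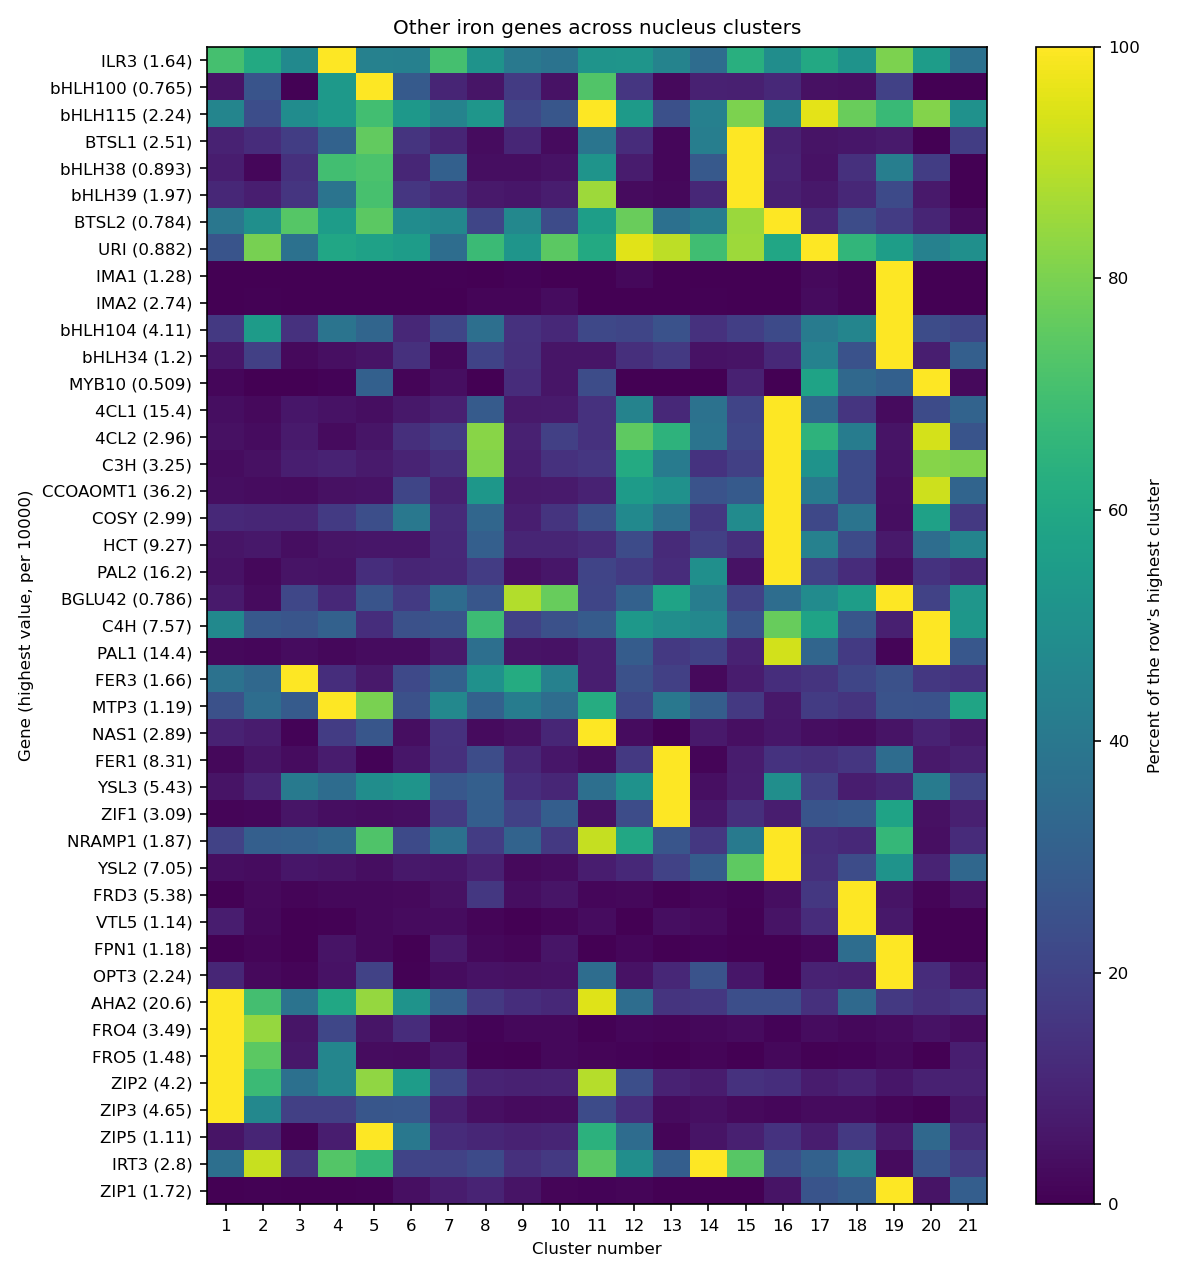
The 43 other iron genes that reached 0.5 per 10000 in a nucleus cluster. Each row is a gene, with its highest value per 10000 in brackets, each column a cluster, and colour is the percent of the row's highest cluster. IMA1 and IMA2 are bright in cluster 19 alone, FRD3 and VTL5 in cluster 18, most phenylpropanoid genes in cluster 16, and FRO4 and FRO5 in clusters 1 and 2.

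Of the 41 other iron genes past the bulk floor, 17 were 2-fold lower in protoplasts, beside 30.3%, and 2 were higher, beside 11.4%. The 2 higher were ferritin genes, FER1 (120 and 320 FPKM) and FER3 (47.6 and 256). Among the lower, NAS1 was at 23.0 and 0.158 FPKM, FRD3 at 12.9 and 0.0801, and VTL5 at 14.7 and 0.247. The zinc and iron transporter gene IRT3 was at 76.3 and 4.31, and FRO4 at 32.1 and 5.57. Of the 17 lower genes, NAS1, FRD3, VTL5, IRT3, NAS2, FPN2, FRO5 and ZIP4 passed the floor through the intact library alone. Of the 7 regulators past the floor 0 were 2-fold higher or lower. Of the 10 coumarin and phenylpropanoid genes 4 were lower, COSY, PAL2, 4CL1 and HCT. Relative to the median gene 14 of the 41 were lower, beside 18.8%, and 3 higher, beside 17.4%. The regulator bHLH34 then became 2-fold higher (1.05 on the log2 scale), while COSY (-0.88), PAL2 (-0.99) and ZIF1 (-0.54) were no longer 2-fold lower. The median log2 ratio of the 41 was -0.77, beside -0.46 over all genes past the floor. The pericycle markers that were lower in protoplasts (129.9 and 8.30 FPKM summed) stand beside FRD3 and VTL5, and their part was not tested.

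In whole cells against nuclei, 10 of the 24 other iron genes past the floor were lower, beside 43.6%, and 2 were higher, beside 20.2%. Relative to the median gene 8 were lower, beside 29.5%, and 7 higher, beside 32.3%, with ILR3, bHLH104, PAL1, C3H and CCOAOMT1 added to the ferritins and 4CL2 and COSY no longer lower. The 2 higher without centring were again FER1 (mean 2.67 in cells and 1.2 in nuclei) and FER3 (2.35 and 0.449). YSL2, of a family that carries nicotianamine complexes of metals, was at 0.0208 and 1.42, and YSL3 at 0.118 and 1.61. BTSL1 was at 0.0251 and 0.516 and AHA2 at 1.83 and 7.64. All of the 10 lower genes except PAL2 and AHA2 passed the floor through nuclei alone. They were COSY, 4CL1, 4CL2, YSL2, YSL3, BTSL1, IRT3 and ZIP2. FER3 passed it through whole cells alone. Listed at 0 in every whole-cell cluster were 6 of the 61, beside 3.89% of all genes in the table: bHLH38, bHLH100, IMA3, CYP82C4, VTL2 and FRO8. Of these bHLH38 and bHLH100 had reached 0.5 in nuclei.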

How the data were processed

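The authors deposited bulk values that were read here as FPKM, since no label names the unit and low values scale with 1 over gene length. In both RNA cluster tables the deposited signal is a mean over the cells or nuclei of a cluster, and a column sums to 10000. In the accessibility table the deposited signal is a mean over nuclei for every region. Its columns sum to between 10532 and 14125 and were scaled here to 10000. The submitters' processing notes list TopHat2 2.0.11, Bowtie2 2.1.0, SAMtools 0.1.19, FastQC, Seurat 3.1.5, Signac 0.2.5, Cell Ranger ATAC 1.2 and Cell Ranger 3.1.0, with the build TAIR10. Replicates were pooled within clusters. Depth, cell numbers, doublet treatment and the strand setting of the counting are not given in the sources used here, so no interval is printed.

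Calculations used pandas 2.3.3 and NumPy 2.4.6 under Python 3.11.15, with figures by Matplotlib 3.10.9. Calls needed 2-fold and a floor. The floor was 0.5 per 10000 in the highest cluster, 0.5 in either mean over clusters for whole cells against nuclei, or 5 FPKM in either bulk library. Ratios were taken after adding 0.1 per 10000 or 1 FPKM. Gene names, and the overlap of genes with regions by 1 base or more, came from a RefSeq table of TAIR10.1, and printed coordinates are those of the deposited regions. The rule named the 10 genes, the 4 genes most like each detected one, every region over a member, and allowed naming of other iron genes that stood 2-fold above the next cluster or differed 2-fold between libraries or tables. Of those that it allowed, the text gives a selection. Named outside it (ILR3, bHLH104, bHLH115, URI, MYB72, bHLH38, bHLH39, bHLH100, bHLH101, BTSL2, CCOAOMT1, PAL1, C3H, IMA3, CYP82C4, VTL2 and FRO8) were genes chosen after their values were seen. The 10 genes and all lists were chosen with earlier results of these data known. The calculations were tested on simulated data. Alternatives changed the pseudocount, floor, fold, centring, averaging, region overlap and measure of likeness.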

Additional observations from a re-analysis of the deposited data

How the results depend on the processing

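No test was possible with pooled or single libraries, so calls rest on 2-fold rules. No paired analysis was possible because the result comes from no test and the tables carry no replicate columns. No library could be left out for the same reason. Signs of the called iron genes held under every alternative run. Highest over the median of the other clusters, in place of the next cluster, called 7 of the iron genes peaked in nuclei in place of 2. A 4-fold rule called 1 of them, IRT1, in nuclei and 0 in whole cells (in place of 2), and 1092 and 461 genes in all in place of 2794 and 1087. In whole cells, floors of 0.1 and 1 gave 2130 and 718 genes. In bulk, a pseudocount of 5 FPKM left 4 of 7 iron gene calls, losing IRT2 (-0.97), FRO2 (0.91) and BTS (0.99), and 2960 lower genes in place of 4582; a floor of 20 FPKM gave 2243, and IRT1 and FRO2 fell under it. Centring gave 2632 higher and 2845 lower. For whole cells against nuclei, a pseudocount of 0.5 gave 1611 lower genes and no floor 6488 in place of 2852, centring gave 2114 higher in place of 1321, and medians over clusters left 1 of 2 iron gene calls. Requiring that at least 0.5 of a region lie in the gene left 3 genes with a region, so the count of correlations above 0 was 3 in place of 9. Of the 28 most alike pairs, 5 were shared by Spearman correlation and 8 without a log; the cause was not tested. Regions before the gene start could not be taken, since the gene table has no strand; 1000 bases on both sides, chosen after seeing the data, kept all 9 above 0.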
